A study of Sus scrofa with 20 samples.

Results

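Of 20 pig backfat libraries, 12 were compared, the 6 with the highest and the 6 with the lowest levels of heat shock transcripts. Each library was scored by the mean log2(CPM + 1) of 2 loci, HSPH1 (XLOC_005232) and DNAJB1 (XLOC_018425), where CPM is the count scaled to the library's total. HSPH1 encodes a large HSP110 chaperone that reloads HSP70, and DNAJB1 encodes an HSP40 co-chaperone that feeds clients to HSP70. The groups were thus set by measured values, and the scoring loci are described below without a test and left out of every result.

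The libraries came from backfat, the subcutaneous fat along the spine, of Italian Large White pigs of 150 to 160 kg, labelled as 10 females and 10 castrated males. All animals shared housing and diet, and no heat treatment or other agent is named for any of them. Tissue was taken at a commercial slaughterhouse and frozen in liquid nitrogen at once, and oligo-dT selected RNA was read as paired 100 bp reads. Libraries are named by labelled sex and a number in deposition order, taken as 1 library per pig. The high group held 4 females (4, 7, 9 and 10) and 2 castrated males (2 and 7) aged 233 to 250 days, and the low group held 3 females (1, 3 and 5) and 3 castrated males (3, 8 and 10) aged 237 to 247 days.

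The heat shock response is a transcription programme, driven mainly by heat shock factor HSF1, that cells switch on when proteins unfold. Its products are chaperones of the HSP110, HSP90, HSP70, HSP40 and small HSP families, their co-factors, and ubiquitin, which marks damaged proteins for the proteasome. Many of these chaperones are also made in unstressed cells, fat cells included, where they fold new proteins.

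HSPH1 ran from 298 CPM in female 9 to 3227 CPM in female 4 across the high group, and from 56.0 CPM in female 1 to 196.7 CPM in castrated male 8 across the low group. DNAJB1 ran from 386 CPM in the library labelled female 10 to 1572 CPM in female 4 in the high group, and from 51.8 to 89.6 CPM in the low group. The scores were 8.47 to 11.14 in the high group and 5.79 to 6.79 in the low group. Just inside the limits stood female 9 at 8.47 and castrated male 3 at 6.79, and just outside stood castrated male 5 at 8.29 and castrated male 1 at 7.10. The score is graded, and the steps at both limits are smaller than that between female 4 (11.14) and castrated male 2 (9.97).

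**Figure D1:**
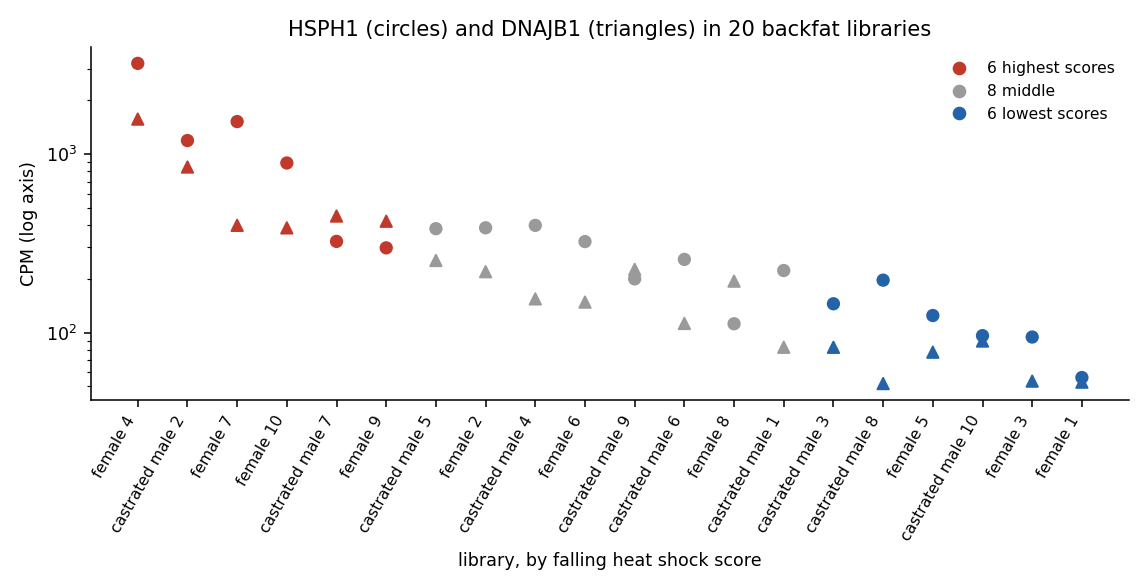
Scaled counts (CPM, log axis) of HSPH1 (circles) and DNAJB1 (triangles) in each of the 20 libraries, ordered by falling score, red for the 6 highest, grey for the 8 middle and blue for the 6 lowest. Both genes are highest in female 4 (3227 and 1572 CPM), and neither falls at every step of the order, which is that of their mean: female 7, ranked 3, has more HSPH1 (1523 CPM) than castrated male 2, ranked 2 (1192 CPM).

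Some libraries stood apart before any comparison. The library labelled female 10, in the high group, had 0.427 CPM at XLOC_042132, where the other females had 548 to 1197 CPM. The library labelled castrated male 10, in the low group, had 936 CPM there, where the other castrated males had 0 to 1.89 CPM. Results are therefore also given without both. Loci of mitochondrially encoded genes, 10 in number, took 12.3% ± 1.98 of counts in the high group and 19.7% ± 3.80 in the low group (SD, n = 6 each). The ranges, 10.01% to 15.2% and 15.97% to 26.3%, did not overlap (two-sided exact permutation p = 0.00216, the smallest 6 against 6 can give, and 0.00866 adjusted over 4 tests). Total counts averaged 33247300 in the high group and 40043000 in the low group (exact permutation p = 0.0974), age 243 ± 6.15 and 241 ± 3.44 days (exact permutation p = 0.535), and labelled females numbered 4 and 3 (Fisher's exact p = 1). The part of depth and of the mitochondrial share in what follows was not tested beyond the fits given with it. After scaling by edgeR's TMM factors, used for all levels from here on, PPARG, the master regulator of fat cells, was read in every library, at 149.1 to 435.9 CPM.

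**Figure D2:**
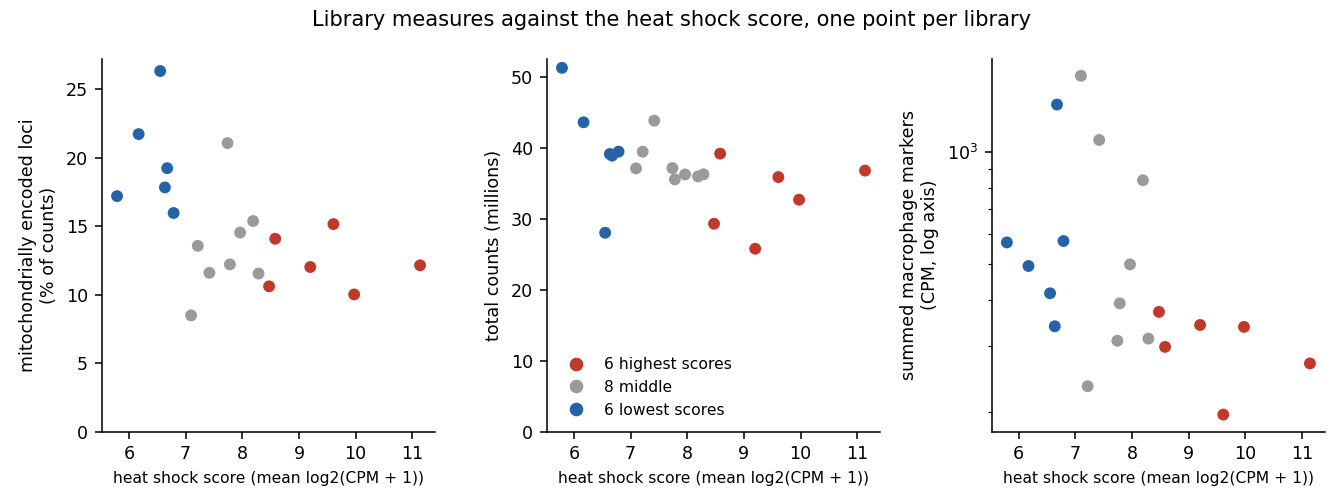
Share of counts at mitochondrially encoded loci, total counts, and the summed level of 10 macrophage markers (log axis) against the heat shock score, 1 point per library, coloured by group. The high libraries lie at 10.01% to 15.2% mitochondrial counts and the low libraries at 15.97% to 26.3%, while castrated male 1, in the middle, has the lowest share of the 20 (8.49%) and the highest macrophage sum (1599 CPM).

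Across all other genes, 8 loci rose in the high libraries and 0 fell, of 21776 tested (0.0367%; edgeR quasi-likelihood test, adjusted p of 0.05). At an unadjusted p under 0.05, 1182 loci were higher (5.43%) and 1255 lower (5.76%), and DESeq2 called 156 higher (0.716%) and 256 lower (1.18%). The groups did not overlap at 80 loci that were higher (0.367%) and 136 that were lower (0.625%). The median log2 difference over all loci was 0.01. Since libraries were sorted on measured transcripts, a p here says that a locus moved with the score in these pigs and nothing about a treatment. The count rests on single libraries: leaving out castrated male 7, castrated male 3, castrated male 8, female 5 or female 3 left 0 loci past the threshold, leaving out female 1 left 1, leaving out castrated male 2 left 4, and leaving out female 9 gave 15. Without both libraries numbered 10, 10 loci passed. With labelled sex, age or the mitochondrial share in the model, 0 passed. The mitochondrial share did not overlap between the groups, so the fit with it cannot tell the share and the group apart. In that fit 6.91% of loci were higher and 6.04% lower at an unadjusted p under 0.05.

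ZFAND2A, which encodes a heat- and arsenite-inducible protein that binds the proteasome, had the largest difference of the named genes that rose. It stood at 326.4 CPM in female 4, 132.6 in female 7, 94.6 in castrated male 7, 64.4 in castrated male 2, 58.2 in female 9 and 60.3 in the library labelled female 10. The low libraries held 14.6 to 23.5 CPM with a median of 19.3, so that every high library lay above every low one, and the 8 middle libraries held 18.2 to 39.0 CPM. The log2 difference was 2.70 (SE 0.40, adjusted p = 0.036), with values of 2.11 to 2.85 and adjusted p of 0.00646 to 0.132 when 1 library was left out.

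RHOF, a small GTPase that shapes filopodia, was the other named gene to rise. Its levels were 80.4 to 124.7 CPM in the high group, median 100.8, and 48.4 to 62.6 CPM in the low group, median 55.3, without overlap. The log2 difference was 0.88 (SE 0.13, adjusted p = 0.036). When 1 library was left out, values were 0.81 to 0.94 and adjusted p 0.0266 to 0.132. RHOF passed in 2 of these 12 fits. The middle libraries, at 49.5 to 129.1 CPM, ran from within the low range to above the high range. The slope of RHOF on the score was 0.13 per unit (SE 0.41) in these 8 libraries, too wide an error to tell it from 0 or from the 0.22 (SE 0.07) over all 20.

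The remaining 6 loci that rose have no symbol in the name table used. XLOC_016642 (ENSSSCG00000016645) stood at 1.23 to 10.4 CPM in the high group and at 0.339 to 0.622 CPM in the low group (log2 difference 3.45, SE 0.43, adjusted p = 0.0215). XLOC_040677, with no identifier, ran from 376.6 CPM in the library labelled female 10 to 2441 CPM in female 4, against 36.4 to 186.6 CPM in the low group (log2 difference 3.49, SE 0.52, adjusted p = 0.036). XLOC_039006, also unidentified, had the largest difference of the 8, 5.11 (SE 0.77, adjusted p = 0.036), at 717.4 CPM in female 4, 241.4 in castrated male 7 and 228.6 in castrated male 2, and 2.36 to 25.9 CPM in the low group. This locus split the middle libraries as well. Castrated male 9, female 8 and castrated male 5 held 150.7, 103.6 and 100.4 CPM, and the other 5 held 3.99 to 28.8 CPM. The highest of those middle libraries, castrated male 9, ranks only 11 by score. Of the 12 fits that left out 1 library, XLOC_016642 passed in 6, XLOC_040677 in 4 and XLOC_039006 in 5.

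Turning to the chaperones, members of the HSP90 machine stood above 0 in 14 of 14 cases, with a median log2 difference of 0.60, while of all loci 51.2% stood above 0 and 48.8% below, with a median of 0.01. The sign count is not particular to them, since cytosolic ribosomal protein genes also stood above 0 in 14 of 14 cases, with values of 0.01 to 0.30 and a median of 0.09. At an unadjusted p under 0.05, 9 of the 14 HSP90 members were higher (5.43% of all loci) and 0 lower, and 0 of the 14 ribosomal protein genes were. HSP90AA1, the inducible cytosolic HSP90, ran from 925.4 CPM in the library labelled female 10 to 3879 CPM in female 7 (median 1584) in the high group and from 635.8 to 1284 CPM (median 648) in the low group. A single low library, castrated male 8 at 1284 CPM, overlapped the high group, and the other low libraries reached at most 676.8 CPM. Its log2 difference of 1.37 (SE 0.31) did not pass (adjusted p = 0.121). HSP90AB1, the constitutive form, stood at 1338 ± 370 against 942 ± 156 CPM (SD, n = 6 each; log2 difference 0.52, SE 0.17, and 0.34 without female 7).

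Of the HSP90 co-chaperones, STIP1, which hands clients over from HSP70, is carried by 2 loci. The first, used in the HSP90 list, stood at 2.40 to 21.4 CPM against 1.13 to 2.36 CPM without overlap (log2 difference 2.57, SE 0.49, adjusted p = 0.0902). The second differed by 1.54 (SE 0.51, and 0.86 without female 7). Over the 20 libraries the first averaged 3.91 CPM and the second 3.83 CPM. In the deposited FPKM (fragments scaled to transcript length and library size) they averaged 0.84 and 55.6. PTGES3, the p23 co-chaperone, held 153.4 to 433.9 CPM in the high group and 97.6 to 152.3 CPM in the low group, a narrow gap without overlap (log2 difference 0.87, SE 0.24, adjusted p = 0.177). FKBP4, an immunophilin of steroid receptor complexes, differed by 0.99 (SE 0.33), CHORDC1 by 0.94 (SE 0.30) and CACYBP by 0.97 (SE 0.36). Without female 7, PTGES3 differed by 0.52, FKBP4 by 0.53 and CACYBP by 0.42. By contrast FKBP5 (0.05), the kinase co-chaperone CDC37 (0.05) and UNC45A (0.19) stood closer to 0.

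Among the HSP40 co-chaperones of the cytosol, 7 of 9 stood above 0 (51.2% of all loci) with a median of 0.27. At an unadjusted p under 0.05, 4 were higher (5.43% of all loci) and 0 lower. DNAJA1 held 1189 CPM in female 7, 637.9 in female 4, 435.5 in castrated male 2, 354.1 in castrated male 7, 299.1 in female 9 and 428.4 in the library labelled female 10. Its low libraries held 123.4 to 285.5 CPM, with castrated male 8 again the highest, and did not reach the high group. The log2 difference was 1.73 (SE 0.32, adjusted p = 0.0799). DNAJB4 held 173.6 to 587 CPM, median 306, against 101.2 to 174.4 CPM, median 162, and the groups met at their edges (log2 difference 1.15, SE 0.28, adjusted p = 0.131). DNAJA2 (0.01), DNAJC2 (-0.03) and DNAJB14 (-0.11) lay near 0.

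In other chaperone families too, single members stood far from 0 beside others near it. BAG3, the nucleotide exchange factor of chaperone-assisted autophagy, held 138.3 to 766 CPM against 93.5 to 159.8 CPM (log2 difference 1.60, SE 0.40, adjusted p = 0.137), and the other 4 exchange factors and ligases lay between -0.03 and 0.24. In the HSP70 and HSP110 group HSPA4L, read at the stronger of its loci, differed by 1.69 (SE 0.56) and HSPA4 by 0.71 (SE 0.30), while HSPA13 stood at 0.07. Both larger values rest on female 7, without which HSPA4L differed by 0.62 and HSPA4 by 0.26. HSPB8, the sole small heat shock protein with a locus, differed by 1.65 (SE 0.49), at 2.78 to 19.8 CPM against 1.96 to 4.97 CPM. The folding chamber CCT and prefoldin had 9 of 10 members above 0 with a median of 0.17, led by CCT4 at 0.43 (SE 0.16, and 0.25 without female 7). The mitochondrial chaperones had a median of 0.02, with HSPD1, mitochondrial HSP60, at 0.49 (SE 0.22) and the locus that joins HSPE1 and MOBKL3 at 0.19 (SE 0.14). HSPA8, HSPA1A, HSPA1L, HSPB1, CRYAB, SERPINH1 and CIRBP matched no locus by symbol and were not analysed here.

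Polyubiquitin UBB, a heat-inducible gene that supplies ubiquitin and whose symbol 2 loci bear, held 3524 CPM in female 4, 2779 in female 7, 2037 in castrated male 7, 1927 in castrated male 2, 2018 in female 9 and 1275 in the library labelled female 10. The low libraries held 1038 to 1423 CPM, so that the library labelled female 10 alone of the high group fell among them (log2 difference 0.91, SE 0.20, adjusted p = 0.117). DEDD2 differed by 1.54 (SE 0.49), a value set largely by female 7 at 140.6 CPM beside at most 29.2 CPM in the other high libraries, and 0.59 without it. SQSTM1 (0.10, SE 0.11) lay closer to 0. HSF1 itself differed by 0.15 (SE 0.17, adjusted p = 0.797) and HSF2 by 0.05 (SE 0.10). The cold-inducible RBM3, a symbol borne by 2 loci, stood at -0.18 (SE 0.29). Proteasome subunits had a median of 0.00, with all 15 between -0.14 and 0.10.

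**Figure D3:**
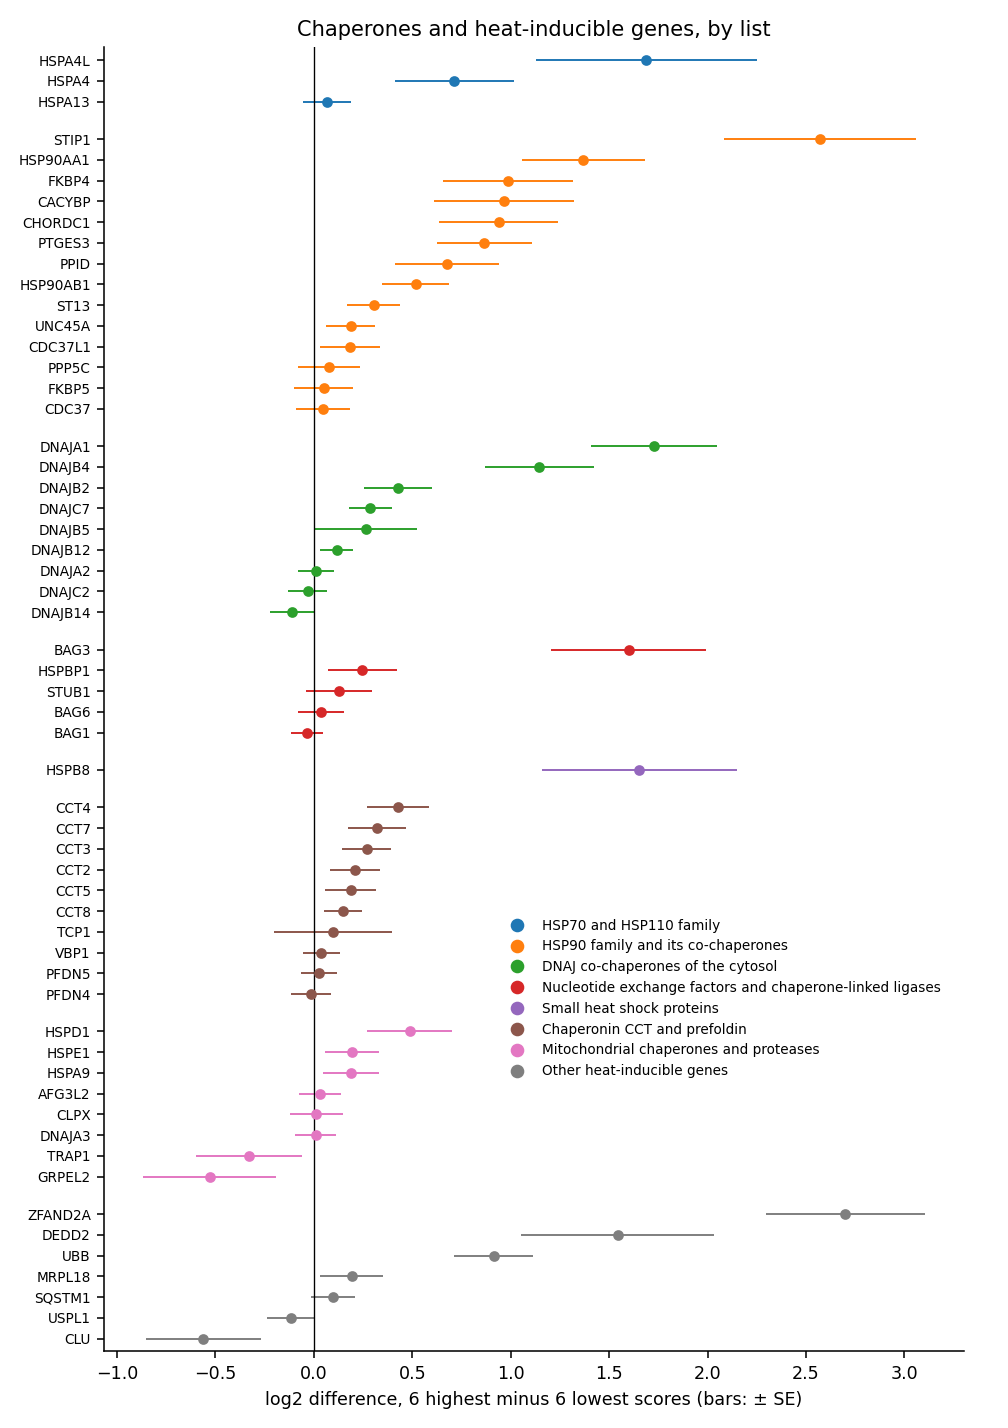
Log2 difference between the 6 highest and 6 lowest libraries (points, bars ± SE) for the chaperones and heat-inducible genes tested and reported here, grouped and coloured by list. In several lists single genes stand far from 0, such as ZFAND2A (2.70), STIP1 at the first of its 2 loci (2.57, and 1.54 at the second), DNAJA1 (1.73), HSPA4L (1.69, and 0.62 without female 7) and BAG3 (1.60), while CCT, prefoldin and most mitochondrial chaperones lie within 0.5 of it.

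The high libraries were not alike. Female 4 had the highest score and the highest ZFAND2A, UBB, DNAJB4 and BAG3, while female 7, ranked 3 by score, had the highest HSP90AA1 (3879 against 2342 CPM in female 4), DNAJA1, HSPA4L (80.2 against 8.16 CPM) and FKBP4 (683.7 against 227.6 CPM). Female 7 was the highest of all 20 libraries for 21 of the 58 loci of the 8 chaperone and heat-inducible lists (36.2%), and for 11.5% of all loci tested. Female 4 was highest for 7 of the 58 (12.1%, against 5.62% of all loci). Without female 7 the HSP90 list kept 14 of 14 members above 0 but its median was 0.32 in place of 0.60. It then had 6 in place of 9 members higher at an unadjusted p under 0.05 (3.93% in place of 5.43% of all loci). The HSP40 list then had 5 of 9 above 0 and a median of 0.10, and the HSP70 and HSP110 list a median of 0.26 in place of 0.71. Without both libraries numbered 10 the HSP90 list had 14 of 14 above 0 and a median of 0.65. With the mitochondrial share in the model it had 12 of 14 and 0.89.

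**Figure D4:**
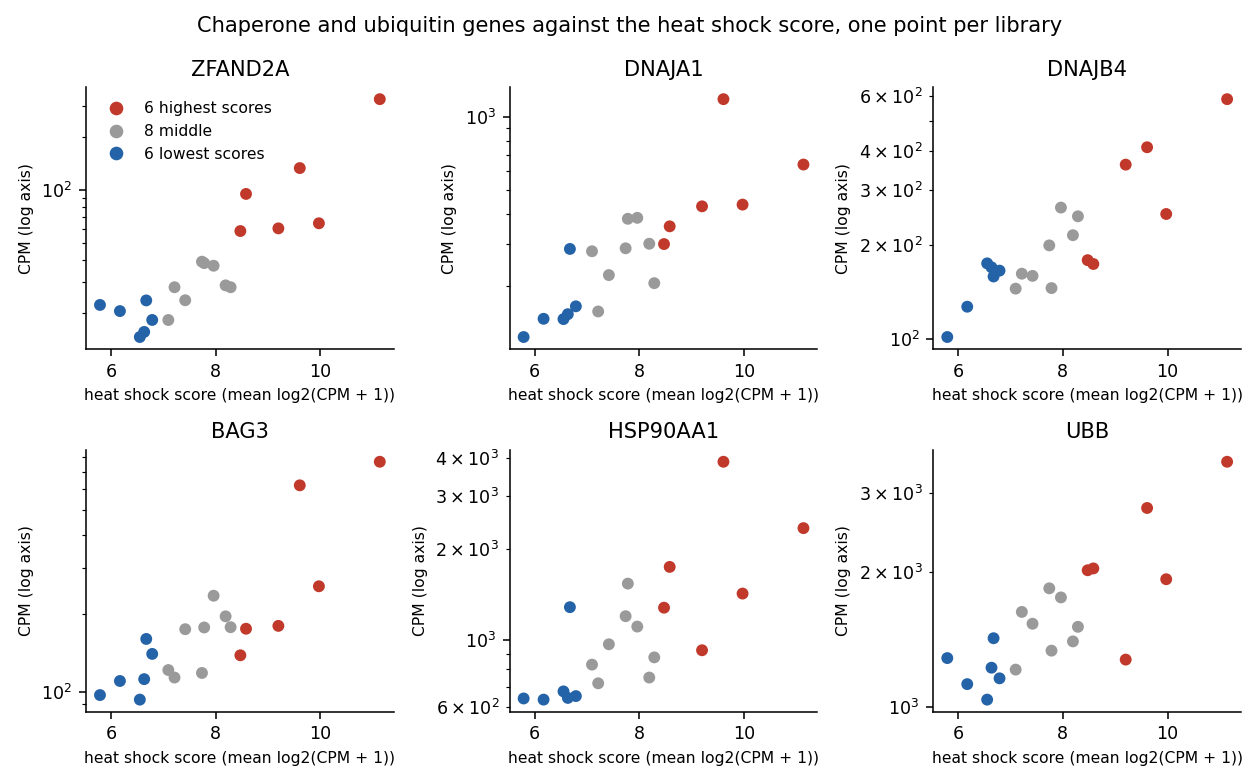
Levels of 6 genes (CPM, log axes) against the heat shock score, 1 point per library, coloured by group. ZFAND2A, DNAJB4, BAG3 and UBB peak in female 4 at the far right, whereas DNAJA1 and HSP90AA1 peak in female 7 (1189 and 3879 CPM), and castrated male 8 is the low library that stands up in DNAJA1 and HSP90AA1 (285.5 and 1284 CPM).

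Fitting a slope on the score over all 20 libraries used the same 12 libraries plus the 8 middle ones, so it is no separate evidence. Of 22733 loci, 30 rose with the score (0.132%) and 2 fell (0.0088%), 12 of the 32 with a symbol, and 7 of the 8 loci above were among them. At an unadjusted p under 0.05, 6.03% were higher and 6.24% lower, and 50.9% of all slopes were above 0 and 49.1% below. Per unit of score, a doubling of the scoring genes' geometric mean, log2 expression rose by 0.77 for ZFAND2A (SE 0.07, adjusted p = 1.47e-06), 0.79 for the first STIP1 locus (SE 0.10, adjusted p = 0.000387), 0.54 for DNAJA1 (SE 0.08, adjusted p = 0.000968), 0.53 for BAG3 (SE 0.06, adjusted p = 0.000102) and 0.40 for DNAJB4 (SE 0.04, adjusted p = 5.97e-05). The second STIP1 locus, at 0.50 (SE 0.11), did not pass (adjusted p = 0.0912). UBB rose by 0.28 (adjusted p = 0.00287) and HSP90AA1 by 0.42 (adjusted p = 0.0198). ZFAND2A, the first STIP1 locus, DNAJA1, BAG3, DNAJB4 and UBB passed in all 20 fits that left out 1 library, and HSP90AA1 in 19. TRA2B, described below, also passed in all 20. SLC22A3, MDFI, DYRK3 and DTX4 passed in fewer, as given below.

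Genes outside the chaperones also rose with the score. TRA2B, a splicing regulator of the SR family, rose by 0.19 per unit (SE 0.03, adjusted p = 0.00414), from 107 to 154 CPM in the low group to 157.6 to 256 CPM in the high group without overlap. The organic cation transporter SLC22A3 rose by 0.32 (adjusted p = 0.0347), MDFI, an inhibitor of myogenic factors, by 0.29 (adjusted p = 0.0324) and the stress granule kinase DYRK3 by 0.26 (adjusted p = 0.0394). DYRK3 passed in 6 of the 20 fits that left out 1 library, SLC22A3 in 12 and MDFI in 13. DTX4, an E3 ligase of the Notch pathway, fell by 0.28 per unit (adjusted p = 0.0224), at 6.39 to 10.9 CPM in the high and 10.8 to 17.1 CPM in the low group. It passed in 16 of the 20 fits that left out 1 library and in 6 of 9 other settings. Leaving out female 3, female 1, female 7 or the library labelled castrated male 10 put its adjusted p at 0.0513 to 0.0665. The count of loci past the threshold was 15 without female 3 and 88 without female 4, and 258 with the mitochondrial share in the model.

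By likeness to the score (Pearson r of log2(CPM + 1), with CPM scaled to the total alone as for the score, over 20 libraries, described without a test), ZFAND2A came first at 0.91 of 6254 loci with a symbol and a mean CPM of at least 10. DNAJB4 (0.90), BAG3 (0.87), TRA2B (0.85), DNAJA1 (0.85), UBB (0.84), PPP2R2A (0.80), KLHL15 (0.79), SLC22A3 (0.77) and HSP90AA1 (0.77) followed. The median r over the 6254 loci was 0.07, with 5th and 95th percentiles of -0.37 and 0.49. Among the loci at the other end were DTX4 (-0.72), the leukocyte lipid kinase PIK3CG (-0.69), the joint TLR6 and TLR1 locus (-0.67), MTSS1 (-0.66), ND5 (-0.66), the joint NCF4 and PVALB locus (-0.66), STAP1 (-0.65), RAC2 (-0.64) and P2RY12 (-0.63). Every r is over the same 20 libraries, whose total counts differ.

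The 8 middle libraries, which the high against low comparison did not use, gave 0 of 22077 loci past the threshold by edgeR, with 1874 at an unadjusted p under 0.05 (8.49%, 4.13% higher and 4.36% lower), and 161 by DESeq2. Their scores span only 7.10 to 8.29. Of the loci higher at an unadjusted p under 0.05, 63.9% of 1160 had a slope above 0 there, against 52.7% of all loci, and of those lower 70.9% of 1235 had a slope below 0, against 47.3%. Castrated male 1 set much of this: without it the shares were 50.7% against 49.7%, and 63.3% against 50.3%. All 8 loci past the threshold had a slope above 0 in the middle libraries, but none of these slopes passed. The values ran from 0.04 (SE 1.22) for XLOC_038555 to 1.03 (SE 0.76) for XLOC_016642. The 8 are not separate cases, since XLOC_037008 stood at 0.32 to 0.51 of XLOC_039006 over all 20 libraries. HSP40 co-chaperones had 9 of 9 slopes above 0 there (8 of 9 without castrated male 1, 9 of 9 without female 8), with a median of 0.17. The HSP90 list had 12 of 14 (9 of 14 without either library), with a median of 0.18. Such sign counts are not particular to chaperones. Proteasome genes had 15 of 15 slopes above 0 (median 0.26) and nuclear oxidative phosphorylation genes 15 of 16 (median 0.30). Without castrated male 1 these were 12 of 15 and 0 of 16.

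The endoplasmic reticulum arm of protein folding lay above 0 as well. Of 16 genes of the unfolded protein response, 12 stood above 0 with a median of 0.28, 6 higher at an unadjusted p under 0.05 (5.43% of all loci) and 0 past the adjusted threshold. Female 7 was the highest of all 20 libraries for 7 of the 16 (43.8%, against 11.5% of all loci). HSPA5, the chaperone BiP, held 461.6 to 994.3 CPM against 270.6 to 647.2 CPM (log2 difference 0.87, SE 0.23, adjusted p = 0.168). Castrated male 8, at 647.2 CPM, was the one low library within the high range, the others reaching 330 CPM at most. HYOU1 differed by 0.63 (SE 0.22) and HSP90B1 by 0.54 (SE 0.21, and 0.35 without female 7). In the middle libraries 8 of the 16 slopes were above 0. The integrated stress response had 10 of 10 above 0 with a median of 0.19, led by the serine synthesis enzyme PHGDH at 66.7 ± 41.2 against 33.5 ± 9.70 CPM (SD, n = 6 each). The hypoxia list had 8 of 15 above 0 (median 0.07), with the collagen hydroxylase P4HA1, a symbol of 2 loci, at 0.94 (SE 0.27, and 0.62 without female 7) and VEGFA at 0.59 (SE 0.16). Immediate early genes had a median of 0.12, with FOS at 0.09 (SE 0.33), 704.9 to 3747 CPM against 929.7 to 2432 CPM. Glucocorticoid-responsive and clock genes had medians of -0.04 and 0.06 and 0 members at an unadjusted p under 0.05.

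Transcripts encoded in the mitochondrial genome stood below 0. All 10 loci stood below 0 with a median of -0.80, each at an unadjusted p under 0.05 (5.76% of all loci). Past the adjusted threshold were 0 by edgeR and 9 by DESeq2 (1.18% of all loci lower by DESeq2). ND5, a subunit of respiratory complex I, held 1273 to 4878 CPM in the high group and 7897 to 17280 CPM in the low group without overlap (log2 difference -1.66, SE 0.29, adjusted p = 0.0646). COX1 differed by -0.75 (SE 0.18) and CYTB by -0.93 (SE 0.21). Nuclear genes of oxidative phosphorylation lay near 0, with all 16 between -0.08 and 0.14 and a median of -0.02. In the middle libraries the mitochondrial loci went the other way, with 10 of 10 slopes above 0 and a median of 0.42 per unit of score, or 7 of 10 and 0.05 without castrated male 1. These loci make up the mitochondrial share given above, so that the list and the share are a single measurement.

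Among immune cell markers, all 10 macrophage markers stood below 0 with a median of -1.11, 8 at an unadjusted p under 0.05 (5.76% of all loci). Past the adjusted threshold were 0 by edgeR and 3 by DESeq2 (1.18% of all loci lower by DESeq2). C1QA, a complement subunit made by tissue macrophages, held 23.5 to 68.7 CPM in the high group and 78.4 to 129.2 CPM in the low group without overlap (log2 difference -0.99, SE 0.22, adjusted p = 0.117). SPP1, osteopontin, held 28.1 to 110.2 CPM against 40.8 to 737.6 CPM, and the scavenger receptor MSR1 5.05 to 18.9 CPM against 15.3 to 68.3 CPM, with castrated male 8 the highest low library for both. The log2 difference was -2.04 for SPP1 and -1.31 for MSR1, and -1.14 and -0.83 without castrated male 8. The summed level of the list was 196.3 to 370.6 CPM in the high group and 339 to 1338 CPM in the low group, and no marker was at 0 in any library. The list median was -0.83 without castrated male 8, -1.15 without both libraries numbered 10 and -1.54 with the mitochondrial share in the model. In bulk tissue, fewer cells of a type and less RNA per cell cannot be told apart.

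Of 12 T and NK cell markers 10 stood below 0 with a median of -0.62, 7 lower at an unadjusted p under 0.05 (5.76% of all loci), among them the granzyme GZMA at 0.571 to 1.35 CPM against 1.40 to 3.34 CPM (log2 difference -1.20, SE 0.27). CD2 differed by -0.62 (SE 0.22), while CD4 stood at 0.69 (SE 0.55) and CD247 at 0.31 (SE 0.17). The summed level of these markers was 101.8 to 170.4 CPM (median 127) in the high group and 111.4 to 170.8 CPM (median 131.6) in the low group, so that the sum overlapped almost wholly. Of the 2 B and plasma cell markers, MS4A1 stood at -0.46 (SE 0.38) and MZB1 at 0.61 (SE 0.47). The named loci of smallest p below 0 were UBASH3B, a phosphatase of lymphocyte receptor signalling (-0.92, SE 0.16, adjusted p = 0.0646), ND5, the joint NCF4 and PVALB locus (-1.17, SE 0.21, adjusted p = 0.0646), the endosomal RNA sensor TLR8 (-1.18, SE 0.22, adjusted p = 0.0732) and C4BPA, whose locus spans 2 identifiers (-1.04, SE 0.19, adjusted p = 0.0802). UBASH3B, TLR8 and C4BPA did not overlap between the groups, with TLR8 at 2.72 to 5.75 CPM against 8.25 to 11.8 CPM. IL10 stood at 0.759 to 1.25 CPM against 1.29 to 2.31 CPM. Proliferation genes had 7 of 8 below 0 with a median of -0.65, TOP2A at -1.08 (SE 0.38). In the middle libraries slopes were below 0 for 10 of 10 macrophage markers, 11 of 12 T and NK markers and 8 of 8 proliferation genes. Castrated male 1 was the highest library for 8 of the 10 macrophage markers, and without it 8 of 10, 12 of 12 and 8 of 8 slopes were below 0, the macrophage median moving from -1.14 to -0.40.

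Genes of the fat cell lay on both sides of 0. PPARG stood at 236 to 435.9 CPM against 218.8 to 294.2 CPM (log2 difference 0.46, SE 0.14, adjusted p = 0.205). Adipocyte genes had 9 of 10 above 0 with a median of 0.20, and lipolysis and lipid droplet genes 8 of 11 with a median of 0.28, led by G0S2, an inhibitor of the fat-cell lipase PNPLA2, at 1.23 (SE 0.36) and ABHD5, an activator of the same lipase, at 0.52 (SE 0.17). With the mitochondrial share in the model the lipolysis median was -0.17, and without both libraries numbered 10 it was 0.09. Fatty acid synthesis had 7 of 10 below 0 with a median of -0.23, where FADS1, a desaturase of polyunsaturated fats, stood at -0.64 (SE 0.21). SCD (-0.24, SE 0.41) and FASN (-0.30, SE 0.56) varied within each group far more than between them, SCD from 2437 CPM in female 9 to 28250 CPM in female 4 within the high group. Fibroblast and matrix genes had a median of -0.01, with fibronectin FN1 at -0.91 (SE 0.23), 546.1 to 1008 CPM against 925.6 to 2527 CPM.

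**Figure D5:**
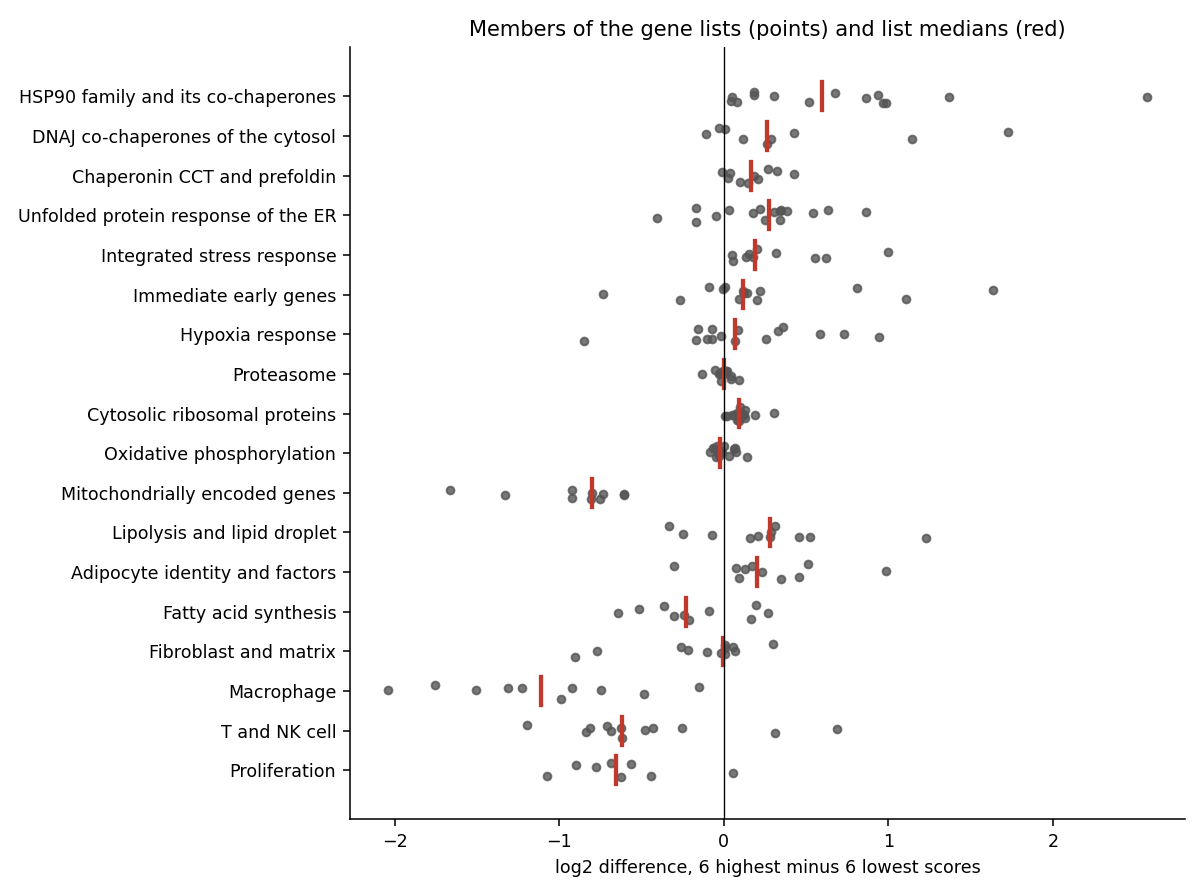
Log2 differences between the 6 highest and 6 lowest libraries for the members of 18 gene lists (points, spread vertically for legibility) with each list's median (red bars). The HSP90 list lies to the right (median 0.60), mitochondrially encoded (median -0.80), macrophage (-1.11), T and NK cell (-0.62) and proliferation (-0.65) lists lie to the left, proteasome and nuclear oxidative phosphorylation genes lie on both sides of 0 (medians 0.00 and -0.02), and ribosomal protein genes lie just above it (median 0.09).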

How the data were processed

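The authors deposited raw read counts and FPKM (fragments scaled to transcript length and library size) for 23483 Cufflinks loci in 20 backfat libraries, checked here to hold whole-number counts. Per the submitters' processing notes, Cufflinks 2.1.1, DESeq2, Bowtie2 2.1.0.0 and TopHat2 2.0.8 were used on build Sscrofa10.2, with no roles given, and strand handling is not given in the sources used here. Totals ran from 25754778 to 51248122 counts, so 1 CPM rested on 25.8 to 51.2 counts per library. Ensembl identifiers were matched to symbols, naming 9360 loci, of which 221 span several symbols. No sequences or coordinates were used. Some genes that were tested are not reported here.

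The members and gene lists (40 lists, 341 genes tested) were chosen with earlier results of these data known. Counts were tested in edgeR 4.0.16 (R 4.3.3) with TMM scaling, filterByExpr, the quasi-likelihood test and Benjamini-Hochberg adjustment over all loci but the 2 scoring loci. Alternatives were DESeq2 1.42.0, limma 3.58.1 (voom with quality weights, and a trend on log2 of the deposited FPKM + 0.1), other scalings and filters, covariates, group sizes and libraries left out. Totals, age and mitochondrial share were compared by two-sided exact permutation tests. The fits were tested on simulated data. Named genes were up to 15 past the threshold in each direction (where under 5 had a symbol, the 5 of smallest p), 4 per list past it, 21 reference genes, and the 10 of highest and lowest likeness to the score. A further 36 genes, some of them also under this rule, were chosen as examples after their values were seen, as were CD4, CD247, MS4A1 and MZB1. The p-values weigh differences and slopes against the spread between these libraries. For a locus, they say only that it moved with the score.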

Additional observations from a re-analysis of the deposited data

Results flagged for a closer look

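Of 154 sets of values (a named gene within the high or the low group), 16 held a library far from the other 5 of its group. The rule is meant to flag about 1 in 20 by chance. That rate is no yardstick here, since 36 genes were chosen after their values were seen and genes of a set are not independent. Female 7 was the far library in 7, castrated male 8 in 6 and the library labelled castrated male 10 in 3.

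In the high group female 7 stood at 80.21 CPM for HSPA4L (next library 12.46), 451 for HSPA4 (164.8), 140.6 for DEDD2 (29.16), 349.3 for CACYBP (112.9), 433.9 for PTGES3 (177.8), 296 for CCT4 (179.2) and 2070 for HSP90AB1 (1374). All of these are chaperones or their partners save DEDD2, a death-effector protein of the nucleus.

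In the low group castrated male 8 stood at 1284 CPM for HSP90AA1 (676.8), 285.5 for DNAJA1 (165.3), 242.1 for FKBP4 (144), 15.2 for HSPA4L (5.837), 647.2 for HSPA5 (330) and 4.664 for the second STIP1 locus (2.097). This library was low by the mean of the 2 scoring genes and still high for these chaperones. The scoring genes disagreed in it. Its DNAJB1 was the lowest of the 20 libraries (51.8 CPM) and its HSPH1 the highest of the low group (196.7 CPM).

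The library labelled castrated male 10 stood low for HSF1, at 28.77 CPM (next 48.28), and high for XLOC_037008, at 11.86 CPM (2.117), and XLOC_039006, at 25.91 CPM (4.877). The ratio of the first unidentified locus to the second was 0.32 to 0.51 over all 20 libraries, and whether they share reads was not tested.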

How the results depend on the processing

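No paired analysis was possible because the replicate numbers follow deposition order and pair no animals. The 8 loci of the high against low comparison became 13 with a mean CPM of at least 10 required, 23 with limma-voom, 412 with DESeq2, 1 with 10 against 10 libraries, and 0 with labelled sex, age or mitochondrial share in the model or with 5 against 5. Leaving out 1 library gave 0 to 15. The 32 loci of the slope over 20 libraries became 357 with DESeq2, 258 with the mitochondrial share in the model and 16 without the highest and the lowest library, and 15 to 88 with 1 library left out. The 0 of the 8 middle libraries became 161 with DESeq2 and 0 to 7 with 1 library left out (7 without female 8). The difference in total counts lay between -9202000 and -4555000 with 1 library left out, and passed (exact permutation p = 0.013) without the library labelled castrated male 10. The mitochondrial share and age kept their side of the threshold in all 12 such fits.

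Signs turned for FOS, HSF1, RBM3, FASN and SCD, none of which passed the threshold in the main comparison. With the mitochondrial share in the model, FOS stood at -1.09, HSF1 at -0.18 and RBM3 at 0.32. With 5 against 5, FASN stood at 0.17, SCD at 0.087 and FOS at -0.11, and with 10 against 10, SCD at 0.091 and RBM3 at 0.081. FOS stood at -0.011 without both libraries numbered 10. With 1 library left out FOS lay between -0.21 (without female 9) and 0.26 and RBM3 between -0.44 and 4.5e-05 (without the library labelled castrated male 10). Causes were not tested. Castrated male 1 is in neither group, so leaving it out changes no high against low value. The alternatives on the mitochondrial share and loci, and on other libraries left out of the slope, were added after seeing the data.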

Other observations

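Several gene groups outside protein folding gave values on both sides of 0 between the 6 high and 6 low libraries, none past the adjusted threshold in edgeR. Interferon-stimulated genes had 8 of 9 members below 0 with a median of -0.39, among them the RNA-binding effector IFIT1 at -0.83 (SE 0.26) and RSAD2 at -0.82 (SE 0.48), while USP18, which removes the ubiquitin-like ISG15, stood at 0.73 (SE 0.20). In the 8 middle libraries 8 of 9 slopes were below 0. Inflammatory genes were divided: NFKBIA, the inhibitor of NF-kappaB, stood at 0.51 (SE 0.14) and the chemokine CXCL2 at 0.68 (SE 0.32), and CCL5 stood at -0.54 (SE 0.22). Nerve and Schwann cell markers had 5 of 6 members above 0 (51.2% of all loci) with a median of 0.39. They were led by the neurotrophin receptor NGFR, a symbol of more than 1 locus, at 0.99 (SE 0.32). In the middle libraries 6 of 6 slopes were above 0 (52.7% of all loci), and 4 of 6 without female 8. Among smooth muscle and pericyte markers, DES stood at 0.64 (SE 0.21) and CSPG4 at 0.35 (SE 0.16), with a list median of 0.09. Endothelial markers had a median of -0.04 and brown or beige fat genes of -0.36, with 0 members of either list at an unadjusted p under 0.05. Red blood cell loci stood below 0 in 3 of 3 cases, HBB at -0.41 (SE 0.56), a difference smaller than its error.

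XLOC_030749 (ENSSSCG00000001759), a locus without a symbol, correlated with the score at r = 0.94 over 20 libraries, a description without a test. It held 25.9 to 136.9 CPM in the high group, 15.3 to 22.6 CPM in the middle libraries and 11.6 to 15.8 CPM in the low group. Its slope was 0.65 per unit of score (SE 0.05, adjusted p = 1.01e-07), and its difference between the high and the low group, 2.11 (SE 0.36), did not pass (adjusted p = 0.0646).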
